A study of Mus musculus with 36 samples.

Results

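The subject is how the effect of digenic mutation on the mouse kidney transcriptome changed between postnatal day 3 (P3) and postnatal day 12 (P12). It was read from 12 of the 36 libraries of the series, those labelled wild type or digenic at either age, with 3 libraries in each of the 4 groups. The whole series holds 4 genotypes at P0, P3 and P12, all from C57BL/6 mice, and RNA-seq was run on total RNA of whole kidneys. Digenic mice were homozygous for loss of Pkhd1 (Pkhd1-/-) and for the RC allele of Pkd1 (Pkd1-RC/RC), and the comparison group was wild type at both genes. The single mutants, Pkd1-RC/RC and Pkhd1-/-, at the same ages serve below as a further comparison. The labels name no Cre driver and no treatment, and a library averages all cell types of the organ. Whether each library came from a separate animal is not stated, so the p-values measure the spread between these libraries.

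Pkd1 encodes polycystin-1, the protein altered in most dominant polycystic kidney disease, and Pkhd1 encodes fibrocystin, the protein altered in recessive polycystic kidney disease. Both are membrane proteins found at the primary cilium of tubule cells. The RC allele is a missense allele that lowers polycystin-1 function without abolishing it. Mouse kidneys keep forming nephrons for the first days after birth, and the tubules then mature and switch on their transport and metabolic genes. The disease effect at P3 and P12 is therefore measured against a normal kidney that is itself changing.

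Pkhd1 was the check of the labels. It stood at 94.1, 64.5 and 105 CPM (a gene's counts scaled to a common library size) in wild-type and 11.4, 11.4 and 10.2 CPM in digenic kidneys at P3, and at 252, 178 and 225 against 33.3, 20.9 and 19.1 CPM at P12. Every digenic library was below every wild-type library, and reads of the remaining transcript were still counted. The difference was -3.0 at P3 and -3.16 at P12 on the log2 scale, with a change between the ages of -0.16 (SE 0.31, adjusted p = 0.86). Pkd1, whose RC allele is a missense change that RNA abundance cannot check, had a change of -0.33 (SE 0.17, adjusted p = 0.36), and Pkd2, the gene of polycystin-2, one of -0.18 (SE 0.16, adjusted p = 0.65). Pkd1 overlaps Tsc2 in the annotation.

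Library totals ran from 53152909 to 80789299 counts. Proximal, loop, distal and collecting duct markers were present in all 12 libraries, with Lrp2 (proximal tubule) at 543 to 1217 CPM. Digenic P12 replicate 1 carries the age P3 in its column header, but Six2, a nephron progenitor gene, was at 0.0357 to 0.327 CPM in the digenic P12 libraries against 8.70 to 11.8 CPM at digenic P3. Adrenal transcripts (summed CPM of Cyp11a1, Cyp11b1, Cyp21a1, Star and Hsd3b1) stood at 462 in digenic P3 replicate 3, 95.6 in digenic P12 replicate 2 and 131 in digenic P12 replicate 3, against 2.07 to 7.62 in the other 9. The 3 digenic P3 libraries were all female by Xist and Y-linked counts, while each other group held 2 males and 1 female. Sex is thus unbalanced at P3 and balanced at P12, and the adjusted p of a gene named below is given with a sex term, or without the libraries holding adrenal transcripts, where that fit ended its call for the change. The latter fit keeps 1 digenic P12 library, replicate 1, so its adjusted p rests on no spread within that group.

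The change was defined as digenic minus wild type at P12 less digenic minus wild type at P3, in log2 units, and tested with edgeR's quasi-likelihood test at a Benjamini-Hochberg adjusted p under 0.05. Of 18043 genes tested, 212 (1.17%) were called. The digenic effect moved upward in 122 (0.676%) and downward in 90 (0.499%), by 0.49 to 4.74 log2 units, and 84 and 59 of these moved at least 2-fold. The median change over all genes was 0.025. At P3 57 genes (0.316%) differed between digenic and wild-type kidneys and at P12 2595 (14.4%) did, of which 196 were also called for the change. A gene called at P12 alone is therefore not by that fact shown to have changed between the ages. Of the 57 genes called at P3, 32 were called at P12 in the same direction, 2 in the other direction and 23 were not called.

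The called genes fell into 4 classes, set by the calls at each age. An effect was counted as grown when called at P12 and, at P3, either not called or called in the same direction and smaller. The sign of an uncalled P3 effect played no part, so Trpv6, which went from -0.56 to 2.26, counts as grown. By this rule an effect grew in 194 genes, of which 120 moved up and 74 down. All 194 were called at P12, and Igfals, which encodes a serum carrier of insulin-like growth factors, was the 1 among them also called at P3, with an effect of -0.73 at P3 and -1.68 at P12. An effect present at P3 faded in 7 genes, and 2 genes, Bdh1 and Ntn1, reversed. The last 9 were called at neither age alone. Of the 212 calls, 43 held in each of the 12 fits that left out 1 library. The rule for naming genes took 12 upward and 12 downward genes from these 43, so their 12 of 12 was fixed by that choice. The numbers of upward and downward calls were 26 and 18 without wild-type P12 replicate 3, and 281 and 166 without digenic P12 replicate 2. A sex term left 67 calls, 64 of them among the 212, and leaving out the 3 libraries with adrenal transcripts gave 247, of which 79 were among the 212. No reported call took the other sign in these fits, and over the leave-one-out fits the adjusted p of the called genes named below by rule was at most 0.13. Upward calls were 70.1% of all calls with the sex term and 67.2% without the libraries holding adrenal transcripts. Igfals had an adjusted p of 0.084 with the sex term, 0.076 without the libraries with adrenal transcripts and 0.22 in the fit of all 36 libraries.

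**Figure D1:**
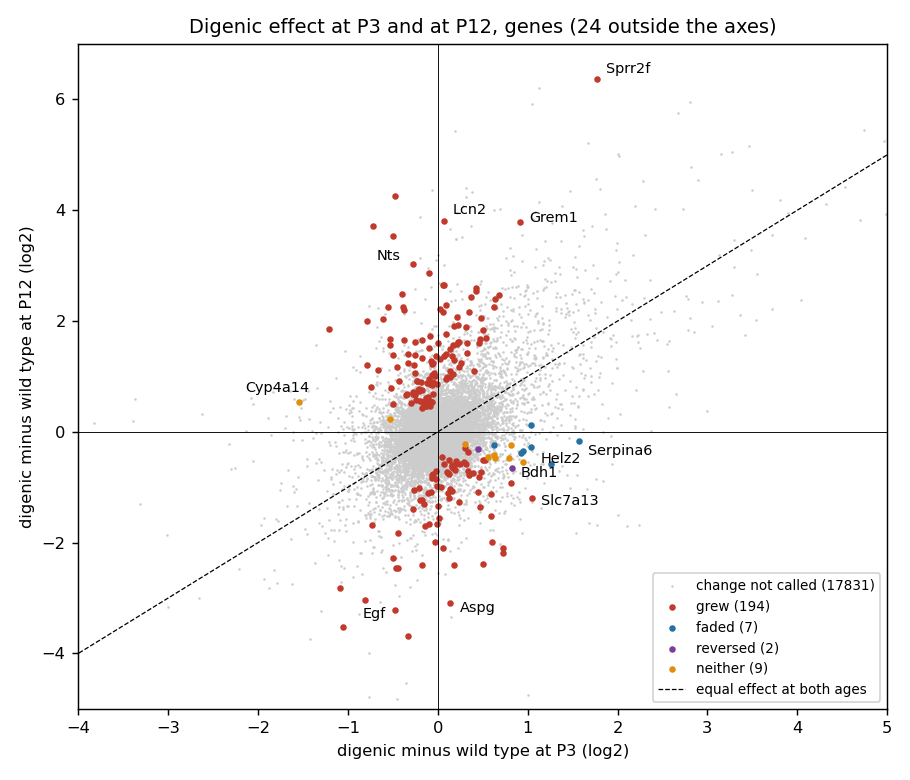
Digenic minus wild-type difference of each gene at P3 (x axis) and at P12 (y axis), in log2, with called genes coloured by class and a dashed line where both effects are equal. Genes that grew (194) sit above or below the dashed line away from the horizontal axis, the 7 faded genes sit right of 0 near the horizontal axis, and 24 genes lie outside the axes.

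The contrast equally compares what each genotype did with age. Wild-type kidneys changed 6496 genes (36%) from P3 to P12 and digenic kidneys 4033 (22.4%). Of the 122 upward genes, 92 fell in wild-type kidneys, 28 were not called and 2 rose. In digenic kidneys 51 of the same 122 rose, 49 were not called and 22 fell. A fall in wild type without a call in digenic kidneys was the most frequent combination, with 49 genes, and 21 genes fell in wild type and rose in digenic kidneys. Of the 90 downward genes, 83 rose in wild type and 7 were not called, and in digenic kidneys 22 rose, 53 were not called and 15 fell. The median change with age of the upward genes was -0.97 in wild type and 0.30 in digenic kidneys, and that of the downward genes was 1.11 and 0.048. These counts come from the libraries that chose the genes and describe them without a test.

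**Figure D2:**
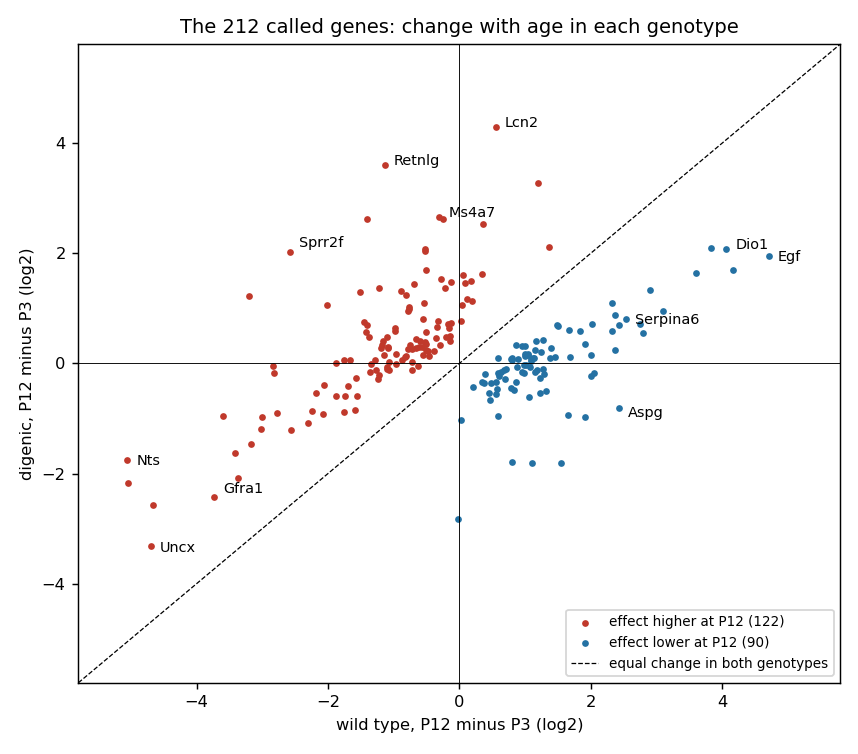
Log2 change from P3 to P12 of the 212 called genes in wild-type (x axis) and digenic kidneys (y axis), with equal change on the dashed line. The 122 upward genes lie above that line, mostly where wild type fell, and the 90 downward genes lie below it, mostly where wild type rose.

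Genes of stressed and injured epithelium were among the largest upward changes. Sprr2f, a small proline-rich protein of stressed epithelia (mm10 chr3:92365187-92366442, plus strand), was at 0.754, 0.877 and 1.11 CPM in wild type and 2.95, 4.52 and 1.93 CPM in digenic kidneys at P3. At P12 the values were 0.165, 0.252 and 0.0506 CPM in wild type and 12.4, 17.9 and 7.91 CPM in digenic kidneys. The groups did not overlap at either age, and from P3 to P12 Sprr2f fell in wild type and rose in digenic kidneys. Its effect went from 1.77 to 6.37, a change of 4.6 (SE 0.63, adjusted p = 0.0076) that held in 12 of 12 leave-one-out fits. Sprr2f has close paralogs, so the share of its reads that belongs to relatives is uncertain.

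Lcn2 (mm10 chr2:32384633-32388252, minus strand) encodes lipocalin-2, a siderophore-binding protein made by injured tubule cells and by neutrophils. It was at 14, 13.2 and 11.2 CPM in wild-type and 16.9, 11.3 and 12.1 CPM in digenic kidneys at P3, and at 16.7, 19 and 20.6 against 500.2, 149 and 137 CPM at P12. The genotypes overlapped at P3 and were far apart at P12, where digenic replicate 1 was the highest. The change was 3.74 (SE 0.63, adjusted p = 0.027). It held in 4 of 12 leave-one-out fits, with an adjusted p of 0.09 without wild-type P12 replicate 3 and of 0.081 with a sex term. Without the 3 libraries with adrenal transcripts the change was 4.6, with digenic replicate 1 as the only digenic P12 library left. Of the 34 measured tubular injury genes, 3 rose in the change (Sprr2f, Lcn2 and Timp1) and none fell, beside 0.676% and 0.499% of all genes. The list median was 0.50 beside 0.025 over all genes. Havcr1, the injury marker KIM-1, followed another course, at 0.952, 0.248 and 1.15 against 10.2, 20.3 and 2.84 CPM at P3 and 0.814, 0.552 and 0.367 against 12, 12 and 7.51 CPM at P12. Its digenic libraries were above wild type at both ages, and its change was 0.37 (SE 0.93, adjusted p = 0.9).

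The 250 bases upstream of the start are shown for 4 upward genes, because the letters of the AP-1 motif, the site bound by Fos and Jun proteins, stood in 17 of 119 windows (14.3%) of the upward genes. The sequences come from RefSeq (GRCm38.p6), run 5′ to 3′ on the gene's strand, and carry in capitals each match to TGANTCA, which reads the same on both strands.
Sprr2f (chr3:92364937-92365186, plus strand): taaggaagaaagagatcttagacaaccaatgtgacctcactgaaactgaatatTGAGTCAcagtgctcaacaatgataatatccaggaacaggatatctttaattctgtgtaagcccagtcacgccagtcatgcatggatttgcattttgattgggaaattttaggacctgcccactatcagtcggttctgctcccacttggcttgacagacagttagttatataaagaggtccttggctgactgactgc
Nts (chr10:102490419-102490668, minus strand): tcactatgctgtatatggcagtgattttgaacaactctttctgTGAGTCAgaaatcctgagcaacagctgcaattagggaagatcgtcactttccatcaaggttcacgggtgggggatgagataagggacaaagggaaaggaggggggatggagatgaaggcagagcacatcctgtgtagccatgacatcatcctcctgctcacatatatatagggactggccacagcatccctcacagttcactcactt
Trem2 (chr17:48346151-48346400, plus strand): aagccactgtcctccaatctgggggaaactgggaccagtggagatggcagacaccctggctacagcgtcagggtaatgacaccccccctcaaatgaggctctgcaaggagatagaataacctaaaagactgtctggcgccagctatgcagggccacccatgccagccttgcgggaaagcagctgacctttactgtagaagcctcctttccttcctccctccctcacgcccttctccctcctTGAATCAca
C3ar1 (chr6:122856158-122856407, minus strand): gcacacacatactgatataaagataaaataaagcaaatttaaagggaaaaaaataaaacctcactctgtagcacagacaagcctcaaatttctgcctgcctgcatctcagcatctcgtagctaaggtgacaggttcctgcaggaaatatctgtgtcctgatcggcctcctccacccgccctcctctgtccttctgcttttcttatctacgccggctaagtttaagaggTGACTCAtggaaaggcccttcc
RefSeq windows were matched for 87 of the 122 upward and 60 of the 90 downward genes, and a gene can have several. TGANTCA was in 1 of 75 windows (1.33%) of the downward genes, in 4.74% of the windows of all genes tested and in 6.75% of all windows of that length in the table. The interferon-stimulated element core GAAANNGAA was in 7.56%, 2.67%, 6.12% and 7.13% of the same 4 sets, and the HNF1 core GTTAATNAT in 0%, 1.33%, 0.547% and 0.737%. Both strands were searched, and none of the 3 motifs contains another. The motifs were chosen with the values known, and a match describes these letters without showing binding. Egr1, an immediate early transcription factor, was the 1 of 27 measured immediate early and AP-1 genes called for the change (1.5, adjusted p = 0.035), beside 1.17% of all genes. Of the 27, 22 had a change above 0, with a median of 0.32. The Egr1 call held in 4 of 12 leave-one-out fits, and without the libraries with adrenal transcripts the change was 1.03 (adjusted p = 0.21).

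Apart from the 6 sex-linked genes described further on, neutrophil genes had the largest median change of the 45 lists, and macrophage genes came next. In bulk tissue, more or fewer cells of a type cannot be told apart from more or less RNA per cell. All 13 measured neutrophil genes had a change above 0, with a median of 3.2 beside 0.025 over all genes. Called were 3 (Retnlg, Prtn3 and Lcn2, which the injury list also holds), all upward, beside 0.676% of all genes. The median digenic effect of the list was -0.0032 at P3 and 3.8 at P12. Its summed level was 27.7 to 29.2 CPM in wild-type and 26 to 35.1 CPM in digenic kidneys at P3, and 25 to 32.7 against 168 to 585 CPM at P12, with no overlap at P12. Lcn2, which injured tubule cells also make, was the larger part of each P12 sum. In digenic P12 replicates 1 to 3 it gave 500.2, 149 and 137 CPM of sums of 585, 168 and 265 CPM. Retnlg, a resistin-like peptide of neutrophils, was at 3.25, 0.48 and 5.63 CPM in digenic P12 kidneys and at most 0.413 CPM elsewhere, with a change of 4.74 (SE 0.98, adjusted p = 0.041) that held in 1 of 12 leave-one-out fits (up to 0.12). S100a8, a calcium-binding protein abundant in neutrophils, was at 27.1, 3.57 and 34 CPM in digenic and 0.826, 1.78 and 0.494 CPM in wild-type P12 kidneys. Digenic P12 replicate 2 was the lowest of its group for both genes, and the S100a8 change was 4.08 (SE 1.0, adjusted p = 0.081). Prtn3, a neutrophil protease, had a change of 1.88 and overlaps Lppr3. Its adjusted p was 0.11 with the sex term and 0.052 without the libraries with adrenal transcripts.

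Of 34 measured macrophage genes, 33 had a change above 0, and the median was 1.37. Upward calls were 3 (Ms4a7, Trem2 and Laptm5), beside 0.676% of all genes. Ms4a7, a membrane protein of tissue macrophages, was at 3.34, 3.23 and 2.89 CPM in wild-type and 2.98, 2.94 and 2.93 CPM in digenic kidneys at P3. At P12 it was at 2.59, 2.96 and 2.1 against 26, 7.92 and 22 CPM. The groups overlapped at P3 only, and digenic P12 replicate 2 was again the lowest of its group. The change was 2.96 (SE 0.46, adjusted p = 0.012), held in 11 of 12 leave-one-out fits, with an adjusted p of 0.0503 without wild-type P12 replicate 3. Trem2, a lipid-sensing receptor of phagocytes, was at 3.21, 2.71 and 2.27 against 2.11, 1.79 and 2.39 CPM at P3 and 1.09, 1.02 and 1.39 against 6.85, 2.98 and 6.35 CPM at P12. It fell with age in wild type and rose in digenic kidneys, and its change of 2.58 (SE 0.41, adjusted p = 0.013) held in 12 of 12 fits. Laptm5, a lysosomal protein of blood cells, had a change of 1.81 that held in 1 of 12 fits. The summed macrophage level was 1069 to 1250.4 CPM in wild-type and 1212 to 2693 CPM in digenic kidneys at P12, so these groups overlapped. The sex term gave an adjusted p of 0.081 for Laptm5.

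Other immune lists had fewer calls or none. The 11 MHC class II genes, which present antigen to helper T cells, had a median effect of 1.72 at P3 and 3.55 at P12. Their summed level in digenic kidneys was 836, 1021 and 162 CPM at P3, against 154 to 193 CPM in wild type. Digenic P3 replicate 3 thus lay within the wild-type range. At P12 the sums were 6015, 732 and 4347 against 215 to 332 CPM. None of the 11 genes was called for the change by edgeR's test, 2 had an unadjusted p under 0.05 and DESeq2 called 1. Over all 18043 genes, 2922 had an unadjusted p under 0.05 and DESeq2 called 1013. Of 21 complement genes, C3ar1, the receptor of the C3a fragment, was called, beside 1.17% of all genes. It was at 6.91, 6.27 and 3.85 against 9.75, 9.34 and 8.14 CPM at P3 and 2.83, 3.17 and 3.96 against 21.9, 11 and 22.1 CPM at P12, apart at both ages, with a change of 1.79 (SE 0.38, adjusted p = 0.045) held in 2 of 12 fits and an adjusted p of 0.12 with a sex term. Of 12 lymphocyte genes, Cd79a, part of the B cell receptor, was called downward, beside 0.499% of all genes. It was at 1.06, 1.64 and 1.56 CPM in wild-type and 0.178, 0.423 and 0.199 CPM in digenic kidneys at P12, with overlapping groups at P3. Its change of -2.59 (SE 0.55, adjusted p = 0.045) held in 2 of 12 fits, and the list's median was 0.99. For Cd79a the adjusted p was 0.079 with the sex term and 0.085 without the libraries with adrenal transcripts.

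The interferon lists had median digenic effects above 0 at both ages. The 41 measured interferon response genes had a median digenic effect of 1.53 at P3 and 0.88 at P12, and the 18 interferon-inducible GTPases one of 4.18 and 3.88. Their median changes were -0.50 and -0.86, and edgeR's test called no member of either list. At an unadjusted p under 0.05 there were 8 and 1, beside 2922 of all 18043 genes. DESeq2 called 2 and 1, beside 1013 of all genes. Iigp1, an interferon-inducible GTPase that acts on pathogen vacuoles, shows the spread. It was at 149, 812 and 20.1 CPM in digenic kidneys at P3 and 977, 15.9 and 109 CPM at P12, against 10.2 to 10.9 and 5.34 to 17.5 CPM in wild type. At each age 1 digenic library was far above the other 2, 1 digenic P12 library lay within the wild-type range, and the SE of the change was 2.09. Without digenic P3 replicate 2 the median change of the GTPases was 0.69, so its direction rests on that library, and over all alternatives the median of the response list ran from -1.06 to -0.089.

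**Figure D3:**
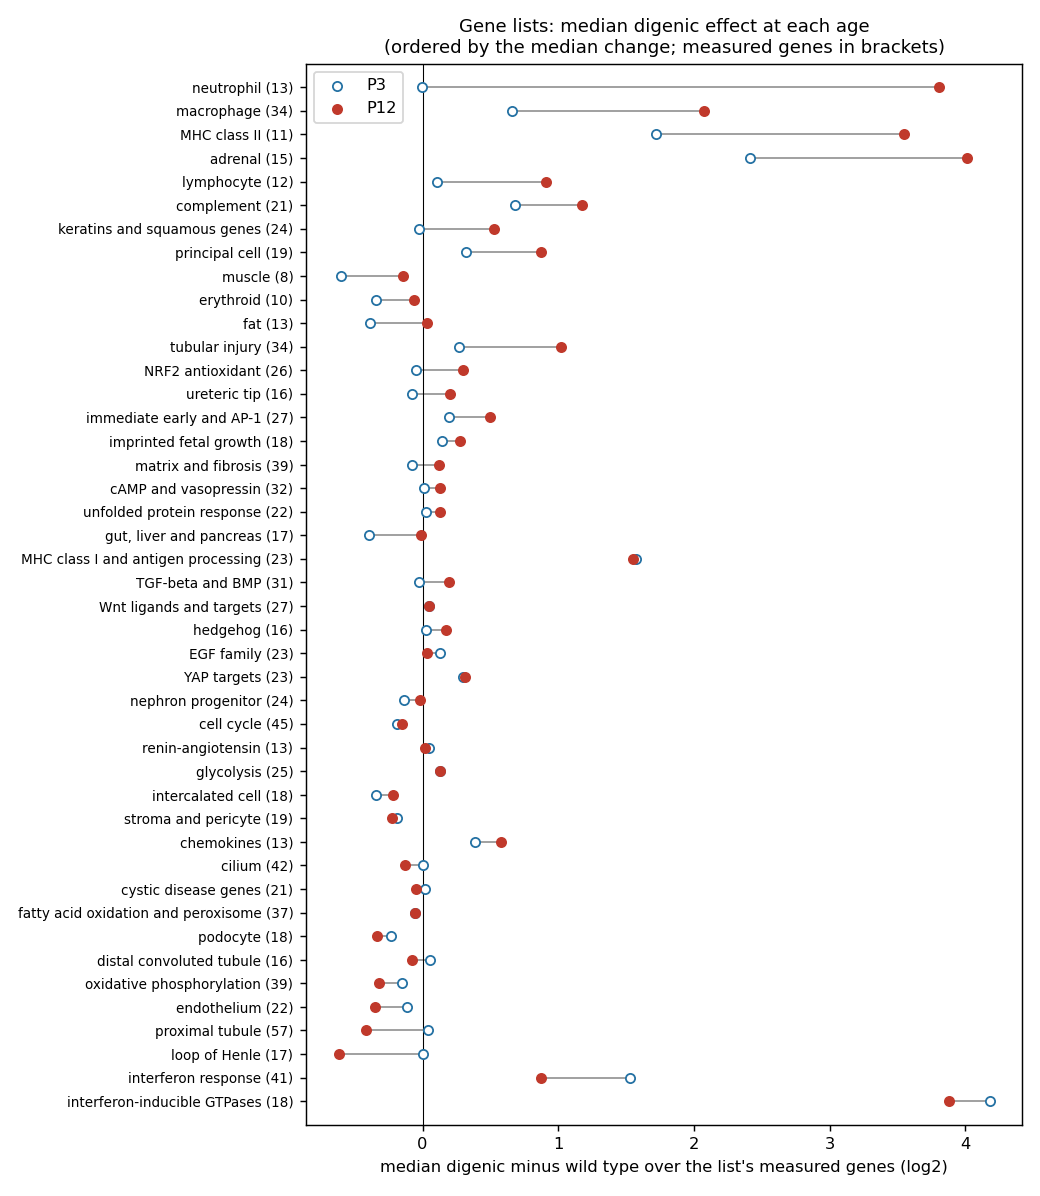
Median digenic minus wild-type difference (log2) over the measured genes of each of 44 gene lists at P3 (open) and P12 (filled), ordered by the median change, with the sex-linked list left out. Neutrophil genes go from near 0 to 3.8, loop of Henle genes from near 0 to -0.62, and the adrenal list, whose transcripts are high in 3 digenic libraries, from 2.41 to 4.01.

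Principal cells of the collecting duct take up sodium and water under hormonal control. Of 19 measured principal cell genes, 17 had a change above 0, with a median of 0.76 beside 0.025 over all genes. Upward calls were 4 (Aqp3, Scnn1b, Gata3 and Hsd11b2), beside 0.676% of all genes, and none was called downward. Aqp3, the basolateral water channel, was at 97.5, 119 and 149.9 CPM in wild-type and 128, 202 and 128 CPM in digenic kidneys at P3, and at 159, 170.3 and 135 against 409, 487 and 514 CPM at P12. The groups overlapped at P3 and the digenic libraries were all higher at P12, with a change of 1.28 (SE 0.27, adjusted p = 0.045) held in 3 of 12 leave-one-out fits. Aqp2, the vasopressin-regulated apical water channel, was at 491, 1109 and 521 CPM in digenic kidneys at P3 and 1419, 2032 and 1897 CPM at P12, against 235 to 556 and 241 to 369 CPM in wild type. Its effect of 2.61 at P12 passed the test (adjusted p = 0.0013), and its change of 1.78 (SE 0.50, adjusted p = 0.11) did not. Scnn1b, a subunit of the epithelial sodium channel, was at 93.5 to 100.1 against 185 to 197 CPM at P12, with overlap at P3 and a change of 0.86 (SE 0.16, adjusted p = 0.025). The call held in 7 of 12 fits, and the adjusted p was 0.076 without the libraries with adrenal transcripts. Gata3, a transcription factor of the collecting duct, fell with age in wild type and had a change of 0.93 (SE 0.16, adjusted p = 0.022), with an adjusted p of 0.079 under the sex term. Scnn1b and Gata3 overlap other annotated genes. Without the libraries with adrenal transcripts the adjusted p was 0.24 for Aqp3 and 0.069 for Gata3.

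Trpv6, an apical calcium channel, was at 9.43, 8.34 and 11.2 CPM in wild-type and 7.26, 6.68 and 5.81 CPM in digenic kidneys at P3. At P12 the order was the other way round, with 4.02, 3.2 and 2.98 CPM in wild-type and 25.5, 13.4 and 9.84 CPM in digenic kidneys. The groups did not overlap at either age, but the P3 effect of -0.56 did not pass the test (adjusted p = 0.4). The change of 2.81 (SE 0.40, adjusted p = 0.0088) held in 12 of 12 fits. Cldn4, a tight junction protein, had a change of 1.11 that held in 3 of 12 fits and had an adjusted p of 0.11 with a sex term.

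Secreted signalling proteins and matrix genes were also among the upward calls. Grem1, a secreted antagonist of bone morphogenetic proteins (BMPs), was at 0.808, 0.612 and 0.954 CPM in wild-type and 1.02, 2.04 and 1.43 CPM in digenic kidneys at P3. At P12 it was at 0.483, 0.851 and 0.684 against 9.74, 6.11 and 11.8 CPM. The groups did not overlap at either age, and digenic expression rose with age while wild-type expression was not called. The change was 2.86 (SE 0.46, adjusted p = 0.013), held in 11 of 12 fits, with an adjusted p of 0.0503 without wild-type P12 replicate 3. Bmp3, a BMP family ligand of the loop of Henle list, was at 27.8, 25.5 and 33.7 against 29.6, 36.2 and 22.7 CPM at P3 and 10.7, 10.2 and 10.9 against 41.8, 50.3 and 56 CPM at P12. It overlapped at P3, fell in wild type and rose in digenic kidneys, with a change of 2.2 (SE 0.23, adjusted p = 0.0049) held in 12 of 12 fits. Of 31 measured TGF-beta and BMP genes 2 were called, Grem1 and Tgfbi, both upward, beside 0.676% of all genes. The median was 0.10, or -0.076 without the libraries with adrenal transcripts.

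In the EGF family, 23 genes measured, 1 member was called in each direction, beside 0.676% of all genes upward and 0.499% downward. Btc, the EGF receptor ligand betacellulin, was at 21.8, 17.7 and 31.9 against 34.2, 47.3 and 29.4 CPM at P3 and 13.2, 16.3 and 12.3 against 81.4, 78.5 and 60.8 CPM at P12, so the groups overlapped at P3 and not at P12. Its change was 1.76 (SE 0.31, adjusted p = 0.024), with an adjusted p of 0.065 without the libraries with adrenal transcripts. Egf, the ligand itself, was at 12.9, 7.84 and 21.4 against 11.9, 6.76 and 11.8 CPM at P3 and 304, 276 and 527 against 28, 43.5 and 46.9 CPM at P12. Egf rose with age in both genotypes, less so in digenic kidneys, where it ended below every wild-type P12 library. Its change of -2.75 (SE 0.55, adjusted p = 0.045) held in 2 of 12 fits, and the adjusted p was 0.094 with a sex term and 0.1 without the libraries with adrenal transcripts.

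Pde3b, a phosphodiesterase that degrades cyclic AMP, was the 1 of 32 cAMP and vasopressin genes called, beside 1.17% of all genes. It was at 25, 19.9 and 25.6 against 23.9, 23.7 and 23 CPM at P3 and 22.1, 17.9 and 20.4 against 74.3, 56 and 52.7 CPM at P12, overlapping at P3 and well apart at P12. The change of 1.6 (SE 0.20, adjusted p = 0.0056) held in 12 of 12 fits. Col12a1, a fibril-associated collagen, was at 82.6, 73.7 and 58.1 CPM in wild-type and 272, 256 and 267 CPM in digenic kidneys at P12, after 167, 125 and 167 against 184, 201 and 186 CPM at P3. It was higher in every digenic library at both ages, and its change was 1.57 (SE 0.19, adjusted p = 0.0056), held in 12 of 12 fits. Of 39 measured matrix and fibrosis genes 3 were called upward (Timp1, Col12a1 and Loxl1) and none downward, beside 0.676% and 0.499% of all genes. The median was 0.20, or -0.074 without the libraries with adrenal transcripts. Timp1, an inhibitor of matrix proteases, had a change of 1.82 held in 7 of 12 fits, and it overlaps Syn1. Tgfbi, a matrix protein induced by TGF-beta, had a change of 0.96, and Hmox1, the haem-degrading enzyme, one of 1.35. Both fell with age in wild type and were not called in digenic kidneys, and both held in 12 of 12 fits. The adjusted p with the sex term was 0.069 for Timp1 and 0.091 for Loxl1, and without the libraries with adrenal transcripts it was 0.059 for Timp1 and 0.12 for Loxl1. In the fit of all 36 libraries that of Hmox1 was 0.23.

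**Figure D4:**
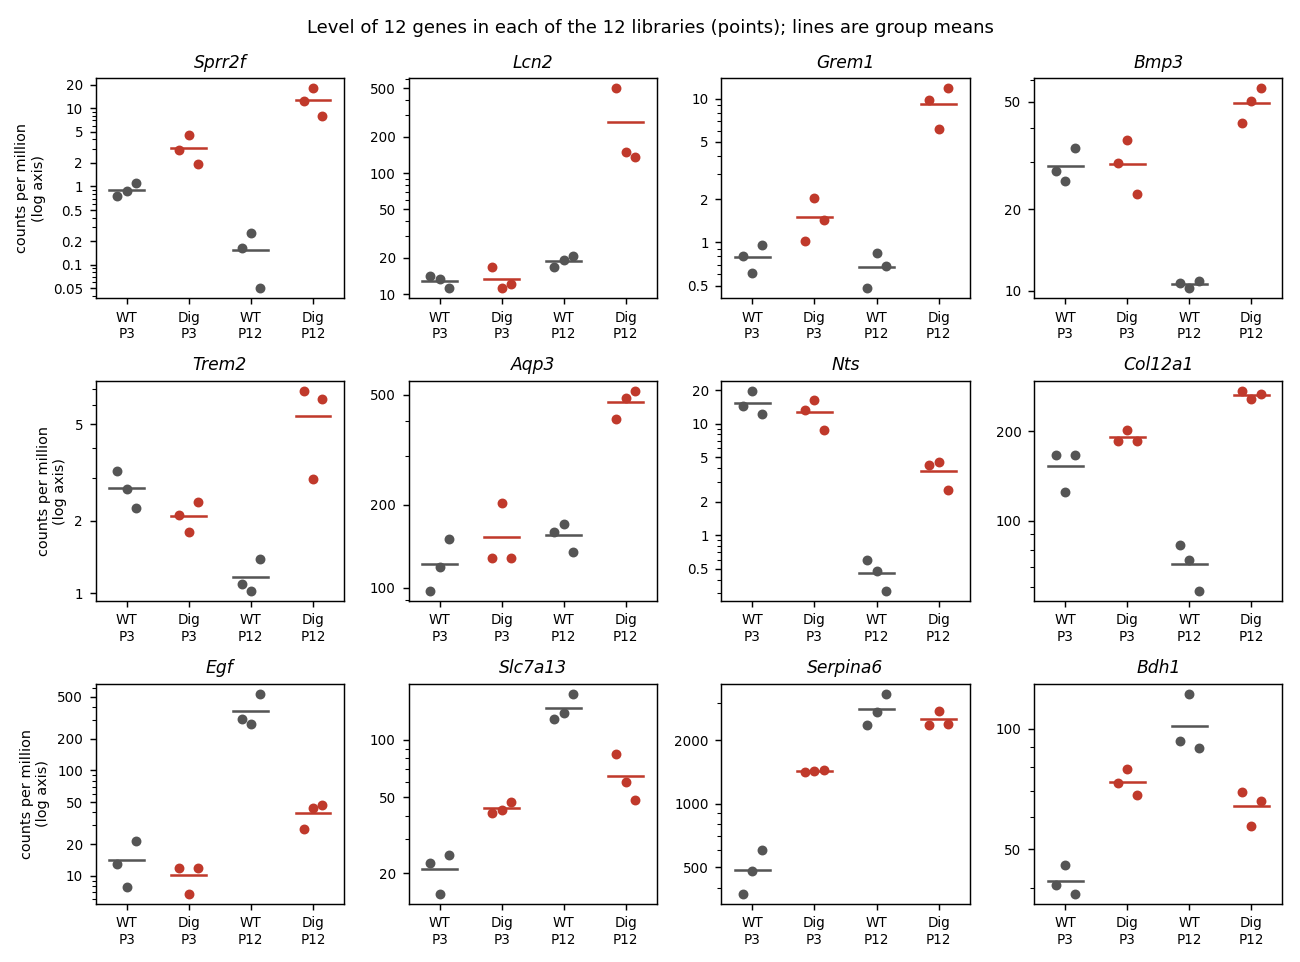
Level of 12 genes in each of the 12 libraries (points, CPM on log axes) in wild-type (WT) and digenic (Dig) kidneys at P3 and P12, with lines at the group means. Lcn2 separates at P12 only, with digenic libraries at 137 to 500.2 CPM, Serpina6 separates at P3 only, and Bdh1 is higher in digenic kidneys at P3 and lower at P12.

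Several genes that normally decline after birth declined less in digenic kidneys. Nts, the precursor of neurotensin, was at 14.4, 19.5 and 12.3 CPM in wild-type and 13.2, 16.1 and 8.76 CPM in digenic kidneys at P3, and at 0.597, 0.473 and 0.317 against 4.28, 4.55 and 2.54 CPM at P12. The groups overlapped at P3 and were apart at P12, and Nts fell with age in both genotypes. Its change of 3.31 (SE 0.43, adjusted p = 0.0056) held in 12 of 12 fits. Ugt2b37, a glucuronidating enzyme with close paralogs, had a change of 2.63, and Slc38a4, an imprinted amino acid transporter, one of 1.68. Igf2bp2, an RNA-binding protein of fetal growth, fell with age in both genotypes and had a change of 1.22. Each of these 3 changes held in 12 of 12 fits.

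Genes of the progenitors that build the nephron and the ureteric tree were also measured. Uncx, a homeobox gene, was the 1 of 24 measured nephron progenitor genes called, beside 1.17% of all genes. Its level was 51.3, 71.2 and 52.7 CPM in wild-type and 60.2, 50.9 and 61.4 CPM in digenic kidneys at P3 and 2.53, 1.75 and 2.43 against 4.25, 6.38 and 6.66 CPM at P12. It overlapped at P3, fell in both genotypes and stayed higher in every digenic library at P12, with a change of 1.38 (SE 0.27, adjusted p = 0.033) held in 4 of 12 fits and an adjusted p of 0.088 with a sex term. Gfra1, the GDNF co-receptor of the ureteric tip, was the 1 of 16 ureteric tip genes called, with a change of 1.31 held in 2 of 12 fits and an adjusted p of 0.12 with a sex term. The list medians were 0.011 and 0.35. Among 45 cell cycle genes the median was -0.0037, edgeR called none, 4 had an unadjusted p under 0.05 and DESeq2 called 0. Among all 18043 genes, 2922 had such a p and DESeq2 called 1013. Uncx had an adjusted p of 0.18 and Gfra1 one of 0.097 without the libraries with adrenal transcripts.

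Genes of the proximal tubule were among the downward calls. Of 57 measured proximal tubule genes, 43 had a change below 0, and the median was -0.42. Called were 4 downward (Slc7a13, Slc5a2, Aadat and Slc22a13) and 1 upward (Cyp7b1, an oxysterol hydroxylase), beside 0.499% and 0.676% of all genes. Slc7a13, an amino acid transporter of the late proximal tubule (mm10 chr4:19818725-19842218, plus strand), was at 22.7, 15.6 and 25 CPM in wild-type and 41.1, 43.1 and 47.1 CPM in digenic kidneys at P3. At P12 it was at 128, 138 and 174 against 84.4, 60.3 and 48.4 CPM. The digenic libraries were above wild type at P3 and below it at P12, without overlap, and only the P12 effect passed the test (adjusted p = 0.058 at P3 and 0.0027 at P12). The change of -2.24 (SE 0.29, adjusted p = 0.0056) held in 12 of 12 fits. Aadat, an enzyme of lysine and kynurenine metabolism, had the same order, at 252, 207 and 287 against 408, 401 and 498 CPM at P3 and 1227, 1364 and 1445 against 873, 646 and 595 CPM at P12. Its change was -1.74 (SE 0.23, adjusted p = 0.0056), held in 12 of 12 fits, and its P3 effect of 0.81 did not pass (adjusted p = 0.058). The adjusted p of Slc22a13 was 0.098 without the libraries with adrenal transcripts, and that of Cyp7b1 was 0.094 with the sex term.

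Slc5a2, the glucose transporter SGLT2 of the early proximal tubule, differed in being lower in digenic kidneys at both ages. It was at 98.3, 103 and 110.5 against 63.2, 36.9 and 77.6 CPM at P3 and 375, 424 and 449 against 36.2, 72.1 and 44.1 CPM at P12. The groups were apart at both ages, every wild-type P12 library was above every P3 library, and the change was -2.22 (SE 0.38, adjusted p = 0.021), held in 7 of 12 fits. Klk1, tissue kallikrein, was at 49.4, 73.2 and 48.1 against 23.6, 21.2 and 35.3 CPM at P3 and 678, 902 and 851 against 129, 91.9 and 122 CPM at P12. Its groups were apart at both ages, and the change was -1.74 (SE 0.31, adjusted p = 0.021). Klk1b5, a paralog, had a change of -2.47, and reads may be shared within this family. With the sex term the adjusted p was 0.064 for Slc5a2, 0.074 for Klk1 and 0.086 for Klk1b5, without the libraries with adrenal transcripts it was 0.097 for Klk1 and 0.063 for Klk1b5, and in the fit of all 36 libraries it was 0.063 for Klk1.

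Of 17 measured loop of Henle genes, 12 had a change below 0, and the median was -0.47. Egf was called downward and Bmp3 and Cldn4 upward, beside 0.499% and 0.676% of all genes. Umod, uromodulin, the most abundant urinary protein, was at 479 to 657 against 446 to 634 CPM at P3 and 1881 to 2031 against 1116 to 1179.7 CPM at P12. It overlapped at P3 and not at P12, and its change of -0.78 (SE 0.20, adjusted p = 0.079) did not pass the test. The summed loop of Henle level was 4658 to 5093 CPM in wild-type and 2805 to 3422 CPM in digenic kidneys at P12, and the summed principal cell level 3446 to 3747 and 6103 to 7087 CPM, neither with overlap. The part that shares of cell types have in these changes was not tested.

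The largest downward change was that of Prokr2, a receptor of prokineticins, at 1.06, 0.899 and 0.912 CPM in wild-type and 0.0357, 0.154 and 0.0331 CPM in digenic kidneys at P12, with overlap at P3. Its level was low, and its change of -3.36 (SE 0.71, adjusted p = 0.045) held in 2 of 12 leave-one-out fits, with an adjusted p of 0.086 with the sex term and 0.07 without the libraries with adrenal transcripts. Several enzymes were also called downward. Aspg, an asparaginase, was at 0.826, 0.993 and 1.36 CPM in wild-type and 1.22, 1.27 and 1.03 CPM in digenic kidneys at P3 and at 4.56, 6.29 and 6.31 against 0.464, 0.711 and 0.829 CPM at P12. It overlapped at P3, rose with age in wild type and fell in digenic kidneys, with a change of -3.23 (SE 0.37, adjusted p = 0.0056). Dio1, the deiodinase that activates thyroid hormone, was at 2.96, 3.95 and 5.87 against 2.71, 2.85 and 3.73 CPM at P3 and 57.1, 72.7 and 84.8 against 13.4, 12.8 and 13 CPM at P12. It rose with age in both genotypes and less in digenic kidneys, with a change of -1.99 (SE 0.31, adjusted p = 0.012) and an adjusted p of 0.086 without the libraries with adrenal transcripts. Uroc1, urocanase of histidine breakdown, had a change of -2.03 (SE 0.32, adjusted p = 0.013) and an adjusted p of 0.051 in the same fit. Acy1, an aminoacylase, had a change of -1.49, and Ddo, the oxidase of D-aspartate, one of -1.31. Apart from these enzymes, Mro was called downward, with a change of -2.12. Aspg, Dio1, Uroc1, Acy1, Ddo and Mro each held in 12 of 12 leave-one-out fits. The adjusted p of Ddo was 0.069 without the libraries with adrenal transcripts, and that of Dio1 was 0.1 in the fit of all 36 libraries.

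The genes whose P3 effect faded or reversed were higher in digenic kidneys at P3 and all moved downward. Serpina6, corticosteroid-binding globulin (mm10 chr12:103646630-103657212, minus strand), was at 374, 478 and 601 CPM in wild-type and 1415, 1433 and 1451 CPM in digenic kidneys at P3, and at 2377, 2735 and 3310.3 against 2376, 2770.2 and 2392 CPM at P12. The groups were apart at P3 and overlapped at P12, and Serpina6 rose with age in both genotypes. Its effect went from 1.57 (adjusted p = 0.0019) to -0.16, a change of -1.73 (SE 0.23, adjusted p = 0.0065) held in 12 of 12 fits. Vwa1, a matrix protein of the von Willebrand factor A family, was at 30.5, 29 and 33.4 against 56.6, 65.9 and 57.2 CPM at P3 and 67.5, 67.5 and 75.5 against 65.2, 42 and 58.5 CPM at P12. Digenic libraries were higher at P3 and lower at P12, and the P12 effect of -0.34 did not pass. Its change was -1.3 (SE 0.20, adjusted p = 0.011), and it overlaps Gm26840, another of the 7 faded genes.

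Helz2, a helicase that coactivates nuclear receptors, went from an effect of 1.04 to -0.27, a change of -1.31 (SE 0.23, adjusted p = 0.022) held in 7 of 12 fits, with an adjusted p of 0.065 with a sex term. Gramd1b, a sterol transfer protein, had a change of -0.91 held in 5 of 12 fits, and Baiap2l2, a membrane-bending protein of microvilli, one of -0.86 held in 7. Both had an adjusted p above 0.05 with the sex term (0.088 and 0.079). D7Ertd443e completes the 7, with a change of -1.84. Because the 3 digenic P3 libraries were all female, the P3 effects of these genes compare groups of unequal sex. D7Ertd443e and Gm26840 had adjusted p of 0.065 and 0.052 under the sex term. Without the libraries with adrenal transcripts the adjusted p was 0.08 for Helz2, 0.17 for Gramd1b and 0.058 for Baiap2l2, and in the fit of all 36 libraries it was 0.062 for Baiap2l2 and 0.092 for D7Ertd443e. The sex term left 1 gene in the faded class.

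The 2 reversed genes were called in opposite directions at the 2 ages. Bdh1, which interconverts the ketone bodies hydroxybutyrate and acetoacetate (mm10 chr16:31422280-31458901, plus strand), was at 40.6, 45.7 and 38.7 CPM in wild-type and 73.2, 79.4 and 68.3 CPM in digenic kidneys at P3. At P12 it was at 93.1, 122 and 89.4 against 69.5, 57.2 and 65.8 CPM. Digenic libraries were all higher at P3 and all lower at P12, with effects of 0.82 (adjusted p = 0.016) and -0.66 (adjusted p = 0.0044). Wild type rose with age and digenic kidneys were not called, and the change was -1.48 (SE 0.18, adjusted p = 0.0056). Ntn1, the secreted guidance cue netrin-1 (mm10 chr11:68209364-68400823, minus strand), was at 63.4, 59.4 and 63.5 against 82.9, 85.2 and 85.5 CPM at P3 and 107, 109 and 108 against 89.7, 84.9 and 88.6 CPM at P12. The same order held, with digenic libraries higher at P3 and lower at P12, effects of 0.44 and -0.30 and a change of -0.75 (SE 0.10, adjusted p = 0.0056). Both changes held in 12 of 12 leave-one-out fits and with the sex term (adjusted p = 0.019 and 0.024). Without the libraries with adrenal transcripts, which leaves 1 digenic P12 library, the changes were -1.42 and -0.71. The reversal itself, which needs a call at each age, held in neither of the latter fits. With the sex term the P3 effects had adjusted p of 0.12 and 0.12, and without the libraries with adrenal transcripts the P12 effects had 0.11 and 0.17. No gene was in the reversed class with the sex term, nor without wild-type P3 replicate 1, digenic P3 replicate 1 or digenic P3 replicate 2, where the count was 0 in each. Bdh1 overlaps Gm15743.

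Among the 9 genes called for the change and at neither age, Cyp4a14, a fatty acid hydroxylase with close paralogs, had the largest size. It was at 119.7, 55.5 and 129 against 24.7, 38.3 and 41.5 CPM at P3 and 193, 209.7 and 294 against 396, 275 and 334 CPM at P12, lower in digenic kidneys at P3 and overlapping at P12. The change of 2.07 (SE 0.42, adjusted p = 0.043) held in 2 of 12 fits, with an adjusted p of 0.088 with the sex term. Hsd11b2, which inactivates glucocorticoid in principal cells, was at 119 to 152 against 89.3 to 102 CPM at P3 and 326 to 395 against 401 to 455 CPM at P12. Its order turned between the ages without a call at either, and its change was 0.76 (SE 0.16, adjusted p = 0.045), held in 2 of 12 fits. The adjusted p of Cyp4a14 was 0.069 without the libraries with adrenal transcripts and 0.31 in the fit of all 36 libraries. For Hsd11b2 it was 0.084 with the sex term, 0.11 without the libraries with adrenal transcripts and 0.47 with all 36.

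The other lists held few calls, beside 1.17% of all genes. Upward were Hmox1 of 26 NRF2 antioxidant genes, Sprr2f of 24 keratin and squamous genes, Dmrt2 of 18 intercalated cell genes, Igf2bp2 of 18 imprinted genes of fetal growth, Axl (0.60) and Fjx1 (0.96) of 23 YAP targets, and Cyp4a14 and Acot1 (0.81) of 37 genes of fatty acid oxidation. The adjusted p with the sex term was 0.11 for Dmrt2, 0.088 for Axl, 0.079 for Fjx1 and 0.096 for Acot1, without the libraries with adrenal transcripts it was 0.095 for Dmrt2, 0.16 for Axl, 0.12 for Fjx1 and 0.078 for Acot1, and in the fit of all 36 libraries it was 0.082 for Dmrt2 and 0.076 for Acot1. Ntn1 was the 1 of 19 stroma and pericyte genes called, downward. In the sex-linked, distal convoluted tubule, podocyte, endothelium, MHC class I, chemokine, glycolysis, hedgehog, Wnt, cilium, cystic disease, renin-angiotensin, unfolded protein, erythroid, adrenal, fat, muscle and gut, liver and pancreas lists, edgeR called none, with 0 to 6 members a list at an unadjusted p under 0.05 and 0 to 3 called by DESeq2. For comparison, 2922 of all 18043 genes had an unadjusted p under 0.05 and DESeq2 called 1013. The 6 sex-linked genes had the largest median change of all lists, 6.18, with a median effect of -6.44 at P3 and -0.11 at P12. The P3 median compares an all-female digenic group with 2 males and 1 female of wild type. Markers of organs next to the kidney had medians of 1.27 (adrenal), 0.60 (fat) and 0.74 (muscle), and the part of such tissue in the other results was not tested beyond the fits named. The fat median was -0.39 with the sex term, and without wild-type P3 replicate 2 the adrenal and fat medians were -0.47 and -0.63.

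The change in digenic kidneys was then set against the change from P3 to P12 in each single mutant, in a fit of all 24 libraries at these ages. The 2 comparisons share the digenic libraries, so their values are given side by side. By Xist and Y-linked counts, the Pkhd1-/- libraries were all male at P3 and of both sexes at P12. The Pkd1-RC/RC libraries were of both sexes at P3 and all male at P12. Summed adrenal transcripts were at 493 in Pkd1-RC/RC P3 replicate 1, 133 in Pkhd1-/- P3 replicate 1 and 176 CPM in Pkhd1-/- P12 replicate 3. For these 2 comparisons, no fit had a sex term or left out all libraries with adrenal transcripts. The change differed between digenic and Pkd1-RC/RC in 780 of 18049 genes (4.32%), higher in 368 and lower in 412. Between digenic and Pkhd1-/- it differed in 1580 (8.75%), higher in 875 and lower in 705. In this fit 896 genes were called for the change of the digenic effect against wild type. For Lcn2 the change against wild type was 0.43 (SE 0.47) in Pkd1-RC/RC and 0.43 (SE 0.48) in Pkhd1-/-, and the digenic change exceeded them by 3.28 and 3.28 (adjusted p = 0.0033 and 0.00086). Ms4a7, Col12a1, Egf and Aspg had changes from -0.21 to 0.21 in the single mutants, and for each of these 4 the digenic change differed from both.

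Of the 18049 genes of this fit, 2 were called for the change against wild type in Pkd1-RC/RC, Uroc1 among them, and 0 in Pkhd1-/-. Some genes stood closer to the Pkd1-RC/RC change. Uroc1 had a change of -1.96 (adjusted p = 0.032) in Pkd1-RC/RC and -0.79 in Pkhd1-/-. The digenic change of Uroc1 differed from that of Pkd1-RC/RC by -0.094 (SE 0.32, adjusted p = 0.9). Btc had a change of 1.03 (SE 0.32) in Pkd1-RC/RC and 0.054 (SE 0.32) in Pkhd1-/-. The digenic change of Btc differed from Pkd1-RC/RC by 0.71 (SE 0.32, adjusted p = 0.2), which did not pass, and from Pkhd1-/- by 1.68 (adjusted p = 0.0037). Dio1 and Serpina6 likewise passed against Pkhd1-/- and not against Pkd1-RC/RC, where the differences were -1.16 (SE 0.45) and -0.74 (SE 0.23). A difference that missed the threshold does not show equal changes. Of the reversed genes, Bdh1 had a change of -0.85 in Pkd1-RC/RC and -0.16 in Pkhd1-/-, and Ntn1 one of -0.23 and -0.052. The digenic change of both genes differed from that of each single mutant.

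**Figure D5:**
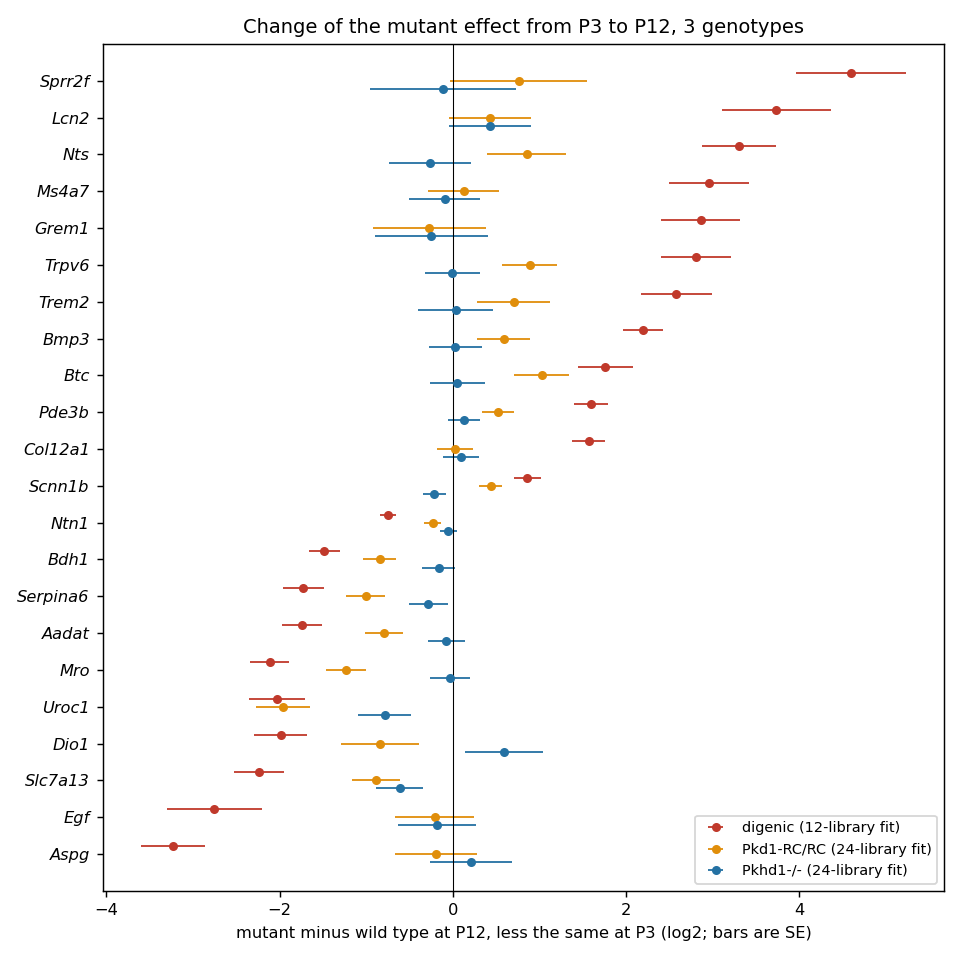
Change from P3 to P12 of the mutant minus wild-type difference (log2, points with SE bars) for 22 genes in digenic, Pkd1-RC/RC and Pkhd1-/- kidneys. Lcn2 is at 3.74 in digenic and at 0.43 in both single mutants, while Uroc1 is at -2.03 in digenic and -1.96 in Pkd1-RC/RC kidneys.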

How the data were processed

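Whole-kidney RNA of 36 mouse libraries was sequenced as 150-base paired-end reads on an Illumina HiSeq4000, per the labels' protocols. The authors deposited 1 table of raw read counts per gene (18049 genes). Per the submitters' processing notes, TopHat2 with Bowtie, featureCounts and edgeR were used on mm10, and the series' design text names MAP-RSeq 2.1.0. The authors' group means, deposited as rounded values and treated here as a score with no SD, served only to place digenic P12 replicate 1, whose header names P3: the P12 mean matched the labelled libraries to within 0.5 counts in 100% of 18049 genes. The 36 normalized columns were not used.

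Counts of the 12 libraries were scaled by TMM and tested with edgeR 4.0.16 (limma 3.58.1, R 4.3.3), by a robust quasi-likelihood fit of 4 group means after filterByExpr (18043 genes), and p-values were adjusted by Benjamini and Hochberg over all genes. The difference from the single mutants used 24 libraries. CPM are TMM-scaled, except for the adrenal sums. No source used here says whether counting was stranded, so overlapping genes may share reads. CPM stands for counts scaled to a library of common size. Replicates of a group differed by more than sampling noise, and none was merged.

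Named were Pkd1, Pkhd1 and Pkd2, the 12 largest rises and 12 largest falls called in all 12 leave-one-out fits, the 6 largest of each class, and up to 3 called members of each of 45 gene lists (44 are shown; the sex-linked list is left out of the plot). Members and lists were chosen with earlier results of these data known. Aqp2, Aqp3, Slc5a2, Klk1, Klk1b5, Umod, Havcr1, S100a8, Iigp1, Igfals, Cyp7b1, Prokr2 and D7Ertd443e, the motifs, and the genes of the closing observations were picked after their values were seen. In data simulated from these libraries (18042 genes), the procedure recovered 53% of changes of 1 log2 unit and 89% of changes of 2, with 10 false among 152 calls. Alternatives were 24- and 36-library fits, DESeq2 1.42.0, RLE scaling, other low-count filters, a non-robust fit, a replicate block, a sex term, a gene length trend, leaving out libraries with adrenal transcripts (which leaves 1 digenic P12 library, assumed to vary like the others) or each library in turn and, chosen after seeing the data, an adrenal covariate.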

Additional observations from a re-analysis of the deposited data

Results flagged for a closer look

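The digenic effect differed between P3 and P12 in 212 genes by the test of that difference (edgeR, adjusted p under 0.05). The change from P3 to P12 differed between digenic and Pkd1-RC/RC kidneys in 780 genes and between digenic and Pkhd1-/- kidneys in 1580. Bdh1 and Ntn1 were called in opposite directions at the 2 ages, and their changes of -1.48 and -0.75 (log2) passed the test of the difference.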

How the results depend on the processing

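With 3 libraries a group and at least 53152909 counts in each, the number of libraries limits the precision. No reported call changed sign in any alternative. In the order 24 libraries, 36 libraries and DESeq2, upward calls were 477, 242 and 549, downward calls 419, 178 and 464, grown effects 774, 371 and 849, faded 61, 26 and 70, reversed 15, 6 and 17, and P3 calls 718, 437 and 692. With a sex term the upward calls were 47, the downward 20, grown 65, faded 1, reversed 0 and P3 calls 14. Without the libraries with adrenal transcripts, faded were 12, reversed 4, P3 calls 595 and digenic changes with age 1873. With the adrenal covariate, chosen after seeing the data, faded were 18, reversed 6 and P3 calls 565. In the 36-library fit 415 genes differed from Pkd1-RC/RC and 787 from Pkhd1-/-. Leaving out 1 library gave 26 to 281 upward and 18 to 166 downward calls, 40 to 420 grown, 1 to 16 faded, 0 to 8 reversed, 16 to 232 P3 calls, 1471 to 3470 P12 calls, 4455 to 6693 wild-type and 2194 to 5150 digenic changes with age, and 268 to 1124 and 627 to 2534 differences from Pkd1-RC/RC and Pkhd1-/-. The causes were not tested. The lowest counts for the change came without wild-type P12 replicate 3 and the highest without digenic P12 replicate 2. The uncalled Pkhd1 change ran from -0.45 (without digenic P12 replicate 1) to 0.019 (without wild-type P3 replicate 2), and was 0.24 without the libraries with adrenal transcripts. Of 57 called named genes, 22 lost the call with the sex term, 26 without the libraries with adrenal transcripts and 7 in the 36-library fit, and 59 of 60 named genes kept their direction throughout. Retnlg and Cd79a had no value under a mean CPM of at least 1. Of 44 list medians, 32 moved in at least 1 alternative. Correlations between same-numbered libraries ran from -0.34 to 0.28, with 8 of 18 over 0.1, and do not settle whether these libraries pair. The replicate block gave 247 calls, 144 upward, and 177 of the 247 were among the 212.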

Other observations

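Genes of ketone body and branched-chain amino acid breakdown were noticed among the called genes after their values were seen, and carry no test as a group. Oxct1, which activates ketone bodies for oxidation, was at 289 to 314 CPM in wild-type and 309.7 to 364 CPM in digenic kidneys at P3, and at 546 to 665 against 265 to 333 CPM at P12, a change of -1.16 (SE 0.16, adjusted p = 0.0077 by edgeR). Acat1, the next enzyme, had a change of -0.80, and Bdh1 is described above. Mccc1 and Mccc2, the subunits of methylcrotonyl-CoA carboxylase in leucine breakdown, had changes of -0.90 and -1.01, Pcca, of propionyl-CoA carboxylase, -0.85, Mmab, of cobalamin metabolism, -0.65, and Aldh4a1, of proline breakdown, -0.82. All 7 of Oxct1, Acat1, Mccc1, Mccc2, Pcca, Mmab and Aldh4a1 were called downward. With a sex term the adjusted p was 0.064 for Acat1, 0.079 for Mmab, 0.088 for Pcca and 0.12 for Aldh4a1. Without the libraries with adrenal transcripts, which leaves 1 digenic P12 library, the 6 other than Oxct1 lost their call. Bcat1, the cytosolic branched-chain transaminase, was called upward, at 1.98 to 4.30 CPM in wild-type and 16.8 to 21.8 CPM in digenic kidneys at P12, with overlap at P3 and a change of 2.06 (SE 0.39, adjusted p = 0.030, or 0.059 with the sex term and 0.084 without the libraries with adrenal transcripts).

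Of the 39 measured oxidative phosphorylation genes, 36 had a change below 0 with a median of -0.17. edgeR called none of them, 1 had an unadjusted p under 0.05 and DESeq2 called 1, beside 2922 and 1013 of all 18043 genes. Crybb1, a lens crystallin, was at 0.782 to 0.831 CPM in digenic kidneys at P3 and 1.01 to 2.36 CPM at P12, against 0.880 to 1.87 and 0.101 to 0.216 CPM in wild type, so its order turned, with a change of 4.44 (SE 0.57, adjusted p = 0.0056). At P0 the 122 upward and 90 downward genes had median digenic effects of -0.021 and -0.037 in the 36-library fit. Of them, 57 and 40 were above 0. Over all genes of that fit the median was -0.0032 and 8962 were above 0, with 18049 genes listed.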
